A study of Caenorhabditis elegans with 3 samples.

Results

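The comparison described here set both RNAi treatments together against the empty vector control, to find the genes that csr-1 RNAi and P granule RNAi moved the same way. All 12 libraries of the deposited expression table took part: 4 from csr-1 RNAi, 4 from P granule RNAi and 4 from empty vector, so 8 libraries stood on the RNAi side against 4 controls. A gene was called when the average of the 2 RNAi means differed from the empty vector mean at an adjusted p under 0.05 (limma, Benjamini-Hochberg over all genes). It met the shared rule when, in addition, both treatments had moved it in the same direction and the smaller of its 2 log2 fold changes was at least 0.5 in size.

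All animals were of the N2 strain, the laboratory wild type of Caenorhabditis elegans. They were fed from the L1 stage at 24 °C, and the germlines came from hermaphrodites of the next generation (F1), taken as young adults. The csr-1 RNAi animals ate bacteria carrying the csr-1 clone of the Ahringer library. The P granule RNAi animals ate bacteria directed at several P granule genes at once, which the labels name only by citation. Background knowledge of the work gives these as the scaffold genes pgl-1 and pgl-3 and the helicase genes glh-1 and glh-4. The empty vector animals ate HT115 bacteria with the L4440 plasmid, the backbone without an insert, so exposure to RNAi feeding bacteria was common to all 3 groups. Each replicate pooled 400 to 500 gonads, severed at the bend between the dorsal and ventral arms, and yielded 1.5 to 4 µg of RNA. The polyA-selected libraries were read as single 100 bp reads with a kit that keeps no strand. Each group's 4 libraries are biological replicates according to the series' design text. The table names them orig, 1, 2 and 3, and what sets orig apart is not given in the sources used here.

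CSR-1 is an Argonaute protein that carries small RNAs antisense to most genes expressed in the germline, and worms need it to produce viable embryos. P granules are RNA and protein condensates that sit on the outside of germ cell nuclei. CSR-1 is found in them, PGL-1 and PGL-3 form their scaffold, and GLH-1 and GLH-4 are helicases related to Vasa. Loss of P granules is known to let germ cells switch on sperm and somatic transcripts.

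Reads assigned to genes numbered 18369939 to 31948734 per library. All 9 germline markers checked were above 0 in every library, for example gld-1 at 21865 to 26378 normalised reads under csr-1 RNAi, 29468 to 42270 under P granule RNAi and 33969 to 43501 in empty vector. Markers of body wall muscle (4 of 4), intestine (4 of 4), gonadal sheath and spermatheca (5 of 5), neurons (4 of 4) and sperm (6 of 6) were also above 0 in all 12 libraries. Of 5 hypodermis markers, 3 were, while dpy-7 and bli-1 were at 0 in some libraries. In such bulk samples, fewer cells of a type and less RNA per cell cannot be told apart.

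The targeted genes gave the check on the labels. The csr-1 gene had 6025, 3827, 3045 and 2445 normalised reads in csr-1 RNAi libraries orig, 1, 2 and 3, 15757, 15005, 16887 and 14389 in the P granule RNAi libraries, and 22790, 24116, 25470 and 21838 in the empty vector libraries. The 3 groups did not overlap. For pgl-1 the values were 22619, 23595, 20337 and 20347 under csr-1 RNAi, 1495, 2418, 2212 and 2746 under P granule RNAi, and 19342, 24248, 23906 and 16123 in empty vector. The scaffold partner pgl-3 had 11183, 11098, 9447 and 9646 reads under csr-1 RNAi, 2181, 2040, 1489 and 2012 under P granule RNAi, and 13270, 12011, 13422 and 9704 in empty vector. Both pgl genes were therefore low in the P granule RNAi libraries alone. The helicase gene glh-4 had 19596, 16243, 17999 and 12856 reads under csr-1 RNAi, 1530, 1437, 1496 and 1596 under P granule RNAi, and 7629, 7620, 7987 and 5344 in empty vector, so the 2 treatments moved it in opposite directions. The other helicase gene, glh-1, had 55940 to 74352 reads under csr-1 RNAi, 16164 to 18726 under P granule RNAi, and 18080 to 29600 in empty vector. Its log2 fold change under P granule RNAi was -0.52 ± 0.16 (SE), with an adjusted p of 0.299 by limma, so of the 4 genes it alone did not pass the test in that treatment.

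Averaged over the treatments, 581 of 11345 genes tested were called (5.12%). Of these, 281 were higher in the RNAi groups (2.48%) and 300 were lower (2.64%). The shared rule was met by 280 genes (2.47%), of which 178 were higher (1.57%) and 102 were lower (0.899%). That split depended on the processing: the shared rule gave 105 higher and 139 lower genes with quantile normalisation, 106 and 107 with voom, 100 and 102 with a low-value filter at 50, and 250 and 267 without the 3 libraries named orig. It gave 133 higher and 36 lower genes with a correction for transcript length and 545 and 164 with DESeq2. Among the 301 other calls, 19 had opposite signs in the 2 treatments and 282 had a smaller fold under 0.5. When both folds had to reach 1 on the log2 scale, 84 genes remained on the higher side and 5 on the lower. Just outside the limit of 0.5 lay snr-6, unc-14 and set-20, with smaller folds of 0.497, 0.498 and 0.499, and just inside it lay spc-1, pin-2 and Y49A3A.4, with 0.5, 0.502 and 0.503.

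The average was carried mainly by csr-1 RNAi. In its own comparison with empty vector, csr-1 RNAi moved 1677 genes past the threshold (14.8%), and P granule RNAi moved 7 (0.0617%), with 1560 at an unadjusted p under 0.05 (13.8%). The 7 were nssp-37, Y45F10C.6 and timm-17B.2, which were higher, and pgl-1, pgl-3, glh-4 and T12F5.2, which were lower. The 2 comparisons share the 4 empty vector libraries, so like directions in both are not separate evidence. Of the 280 shared genes, 269 passed the test under csr-1 RNAi alone and 2 under P granule RNAi alone, with 211 at an unadjusted p under 0.05 under P granule RNAi. Only 1 gene, T12F5.2, was called in each treatment's own comparison with the same sign.

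A direct comparison of csr-1 RNAi with P granule RNAi, which needs no control library, called 1080 genes (9.52%). Of the 280 shared genes, 107 differed between the treatments by that test, and csr-1 RNAi had the larger change in 105 of them. The exceptions were nssp-37 and T12F5.2. The median log2 fold change of the 178 shared rises was 2.02 under csr-1 RNAi and 1 under P granule RNAi, and that of the 102 shared falls was -1.49 under csr-1 RNAi and -0.69 under P granule RNAi. Over all genes tested, the medians were 0.02 under csr-1 RNAi and 0.03 under P granule RNAi.

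**Figure D1:**
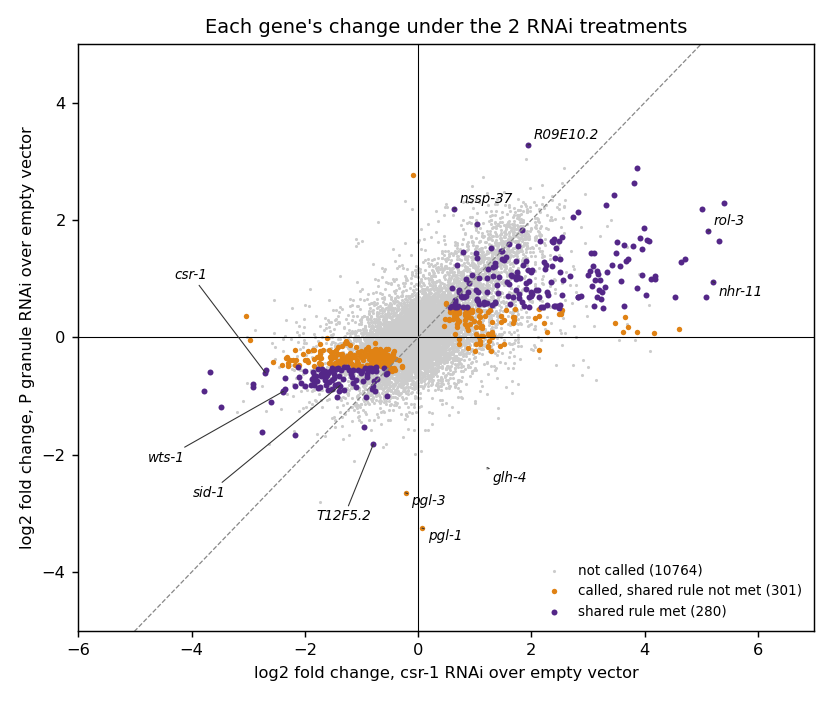
Each of the 11345 genes tested is a point, with its log2 fold change under csr-1 RNAi on the x axis and under P granule RNAi on the y axis, both over the same 4 empty vector libraries. Of the 280 genes meeting the shared rule, 256 lie on the x axis side of the dashed line of equal change. The genes pgl-1, pgl-3 and glh-4 lie far below 0 on the y axis.

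Replicate spread limits these totals. In 395 genes (3.48%) all 8 RNAi libraries lay beyond all 4 controls, 190 above and 205 below, and this held for 145 of the 280 shared genes. Leaving out 1 library changed the number of calls to 183, 124, 88 and 291 without empty vector orig, 1, 2 and 3, to 241 and 291 without P granule RNAi 2 and 3, to 233 and 261 without csr-1 RNAi 1 and 2, and to 1260 without csr-1 RNAi orig. The shared rule was then met by 102, 80, 52 and 151 genes without the same 4 empty vector libraries, by 133 and 161 without P granule RNAi 2 and 3, by 120 and 140 without csr-1 RNAi 1 and 2, and by 684 without csr-1 RNAi orig. In all 12 such fits, 36 genes met the shared rule, 28 higher and 8 lower. A fit with 1 common mean for the 8 RNAi libraries, in which differences between the treatments count as spread, called 0 genes by limma, with 2276 at an unadjusted p under 0.05 and nstp-6 nearest the threshold at an adjusted p of 0.139. With a mean per group, edgeR called 493 genes and DESeq2 1460.

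A trend with transcript length moved with the groups. For each library, the median deviation from the gene mean was taken over the longest 25% of transcripts, less that over the shortest 25%. This difference was 0.67, -0.04, -0.03 and -0.96 on the log2 scale in csr-1 RNAi orig, 1, 2 and 3, 0.02, -0.42, -0.34 and -0.55 in the P granule RNAi libraries, and 0.26, 0.54, 0.67 and 0.25 in empty vector. All 4 P granule RNAi libraries thus had relatively fewer reads from long transcripts than any control, as did 3 of the 4 csr-1 RNAi libraries. The shared rises had a median transcript length of 1017 bases and the shared falls of 3390 bases, against 1418 bases over all genes tested. When the length trend was taken out of each library, 439 genes were called, 284 higher and 155 lower, and 169 met the shared rule. Of those 169, 100 of 133 rises and 28 of 36 falls were among the shared genes before the correction. Among the 36 genes that met the rule whichever library was left out, 24 rises and 5 falls also met it after the correction. What caused the length trend was not tested.

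**Figure D2:**
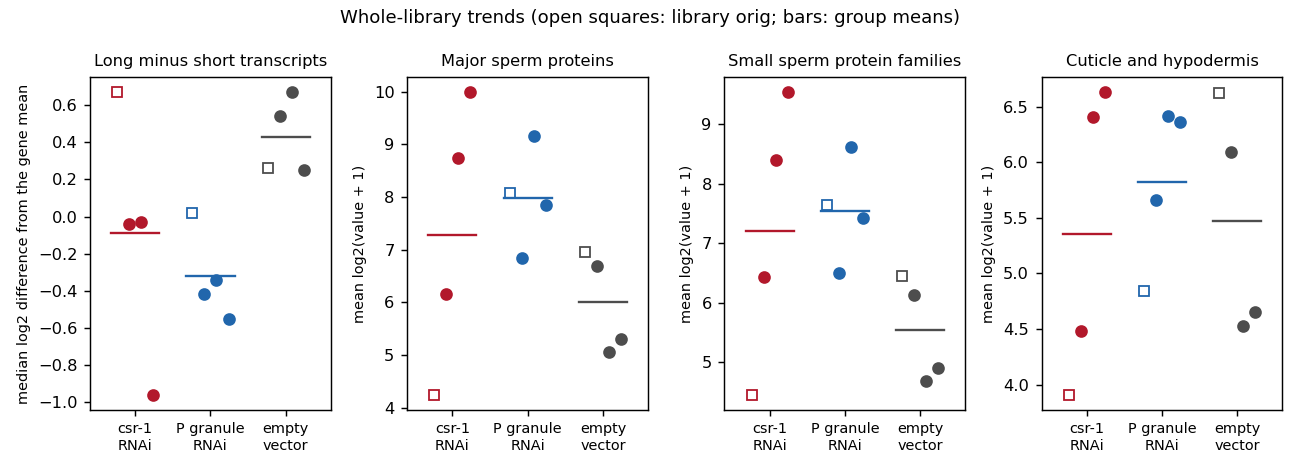
Points are libraries, with the library named orig as an open square, and bars are group means. The first panel shows the length trend (log2 difference between long and short transcripts), with empty vector at 0.25 to 0.67 and P granule RNAi at -0.55 to 0.02, and the others show the mean log2(value + 1) of major sperm protein, small sperm protein and cuticle genes.

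**Figure D3:**
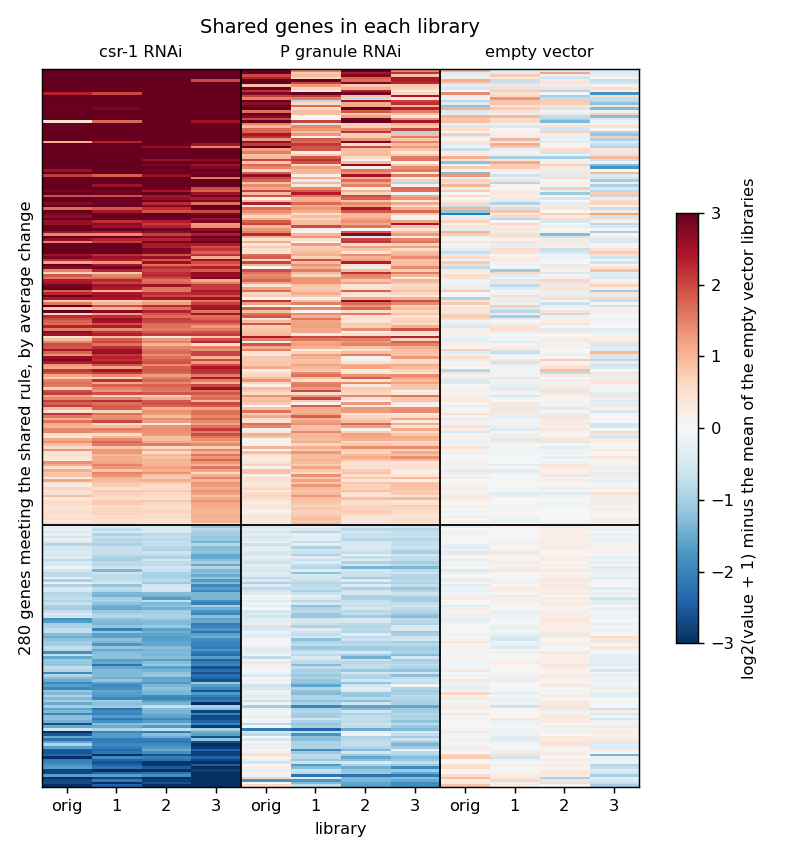
Each line is 1 of the 280 genes meeting the shared rule, ordered by average change, and each column is a library. Colour gives log2(value + 1) less the mean of the 4 empty vector libraries, and it is deeper in the csr-1 RNAi columns than in the P granule RNAi columns for most genes.

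The shared rises were mostly genes with few reads in control gonads. Their median level in empty vector was 15.3 normalised reads, and 142 of the 178 (79.8%) lay under 100 reads. In 51 of the 178 (28.7%) no control library reached 10 normalised reads, so they passed the low-value filter through the RNAi libraries alone, and such genes had to be higher there. The 12 largest rises with no overlap between RNAi and control libraries included the nuclear hormone receptor gene nhr-11, rol-3, which encodes a receptor tyrosine kinase related to ROS, the zinc transporter gene zipt-2.3, the T-box gene tbx-43 and the chemoreceptor genes str-68 and sri-16.

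The gene nhr-11 had 725, 1014, 847 and 555 normalised reads under csr-1 RNAi, 38.4, 50.7, 35.1 and 35.7 under P granule RNAi, and 16.2, 26.2, 17 and 21.7 in empty vector. The 3 groups did not overlap, with csr-1 RNAi far above the other two. Its log2 fold change averaged over the treatments was 3.08 ± 0.22 (SE, adjusted p = 7.5e-05 by limma), made up of 5.2 under csr-1 RNAi and 0.95 under P granule RNAi. The difference between the treatments was 4.24 on the log2 scale (adjusted p = 2.05e-06 by limma). The receptor gene rol-3 had 435, 219, 248 and 207 reads under csr-1 RNAi, 36.9, 11.4, 24.8 and 40.6 under P granule RNAi, and 8.12, 8.37, 4 and 6.92 in empty vector. Again no group overlapped another, and the log2 fold change was 5.12 under csr-1 RNAi and 1.81 under P granule RNAi, with an average of 3.46 ± 0.36 (SE, adjusted p = 0.000967 by limma). The transcript of rol-3 is long, at 7747 bases, and its average was 4.17 after the length correction. The gene nssp-35, whose role is not given here, had 946, 968, 710 and 623 reads under csr-1 RNAi, 87.1, 118, 72.3 and 77.6 under P granule RNAi, and 30.9, 31.4, 59 and 59.3 in empty vector, and averaged 2.59 ± 0.24 (SE, adjusted p = 0.000524 by limma).

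In 7 of the 12 largest rises without overlap, the 4 control libraries together held 6 reads or fewer, so the fitted fold depends on the pseudocount. Their summed reads are therefore given as a description. These genes passed the low-value filter through the RNAi libraries alone and were picked as large rises, so high ratios are no separate support. The chemoreceptor gene str-68 had 220 reads in the 4 csr-1 RNAi libraries, 28 in the 4 P granule RNAi libraries and 2 in the 4 empty vector libraries. Scaled for depth, that is a ratio of 111 over empty vector for csr-1 RNAi (95% exact interval 30.3 to 921) and of 15 for P granule RNAi (3.78 to 130). The interval covers counting error only, not the choice of the gene as a large rise. The gene C08D8.1 had 95 reads under csr-1 RNAi, 40 under P granule RNAi and 3 in empty vector, with ratios of 31.9 (10.6 to 157) for csr-1 RNAi and 14.3 (4.54 to 72.1) for P granule RNAi. The difference between the treatments, 1.19 on the log2 scale, did not pass the test for C08D8.1 (adjusted p = 0.184 by limma), whereas that for str-68, 3.1, did (adjusted p = 0.00399 by limma). The T-box gene tbx-43 had 139 reads under csr-1 RNAi, 67 under P granule RNAi and 4 in empty vector, with ratios of 35 (13.4 to 130) for csr-1 RNAi and 17.9 (6.68 to 67.7) for P granule RNAi. The chemoreceptor gene sri-16 had 148 reads under csr-1 RNAi, 34 under P granule RNAi and 6 in empty vector. It shares exons with sri-15 on the same strand, so its reads cannot be assigned to 1 of the pair with certainty. Y44A6D.6, Y39B6A.29 and the carnitine palmitoyltransferase gene cpt-3 had 207, 208 and 76 reads under csr-1 RNAi, 14, 17 and 21 under P granule RNAi, and 1, 2 and 1 in empty vector. The calls of Y39B6A.29 and cpt-3 were lost without empty vector orig, 1 or 2, and that of tbx-43 without empty vector 1, 2 or 3. That of cpt-3 was also lost with quantile normalisation (adjusted p = 0.0738 by limma) and with a pseudocount of 8 (0.057), and that of tbx-43 with a pseudocount of 8 (0.0567) and with voom (0.0535). Y39B6A.29 and Y44A6D.6 did not pass the low-value filter without any 1 of the csr-1 RNAi libraries, nor did cpt-3 without csr-1 RNAi orig, 1 or 2 or P granule RNAi orig, so they were not tested there.

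The remaining rises among these 12 were F38E11.6 and zipt-2.3. F38E11.6 had 80, 61, 62.1 and 75.5 normalised reads under csr-1 RNAi, 13.3, 7.61, 15.5 and 12.3 under P granule RNAi, and 2.44, 5.23, 4 and 2.97 in empty vector. The zinc transporter gene zipt-2.3 had 86.5, 90.9, 49 and 39.9 under csr-1 RNAi, 15.5, 16.5, 6.2 and 20.9 under P granule RNAi, and 2.44, 5.23, 1 and 4.94 in empty vector. Both rose without overlap between groups, and the average log2 fold changes were 2.72 ± 0.29 for F38E11.6 and 2.93 ± 0.43 for zipt-2.3 (SE, adjusted p = 0.000967 and 0.00476 by limma). No control library reached 10 reads for either gene, so both passed the low-value filter through the RNAi libraries alone. Both were also picked for their lack of overlap, so neither that nor the p-values are separate support. Each overlaps an exon of a neighbour on the opposite strand, copb-2 for F38E11.6 and kqt-3 for zipt-2.3, and reads from the 2 strands cannot be told apart here.

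Some shared rises, chosen after their values were seen, had like values under both treatments or a higher level in controls. The gene nstp-6, of the nucleotide sugar transporter family, had 81.4, 97.1, 86.6 and 106 reads under csr-1 RNAi, 56.8, 114, 91.9 and 96 under P granule RNAi, and 33.3, 37.7, 44 and 28.7 in empty vector. Both RNAi groups lay above the controls and overlapped each other, with log2 fold changes of 1.35 under csr-1 RNAi and 1.27 under P granule RNAi and an average of 1.31 ± 0.23 (SE, adjusted p = 0.01 by limma). F23A7.4, which lies on the X chromosome, had 3023, 4475, 3235 and 4741 reads under csr-1 RNAi, 2108, 2831, 2625 and 2628 under P granule RNAi, and 1330, 1470, 1429 and 786 in empty vector. Its annotated transcript is only 207 bases long, and after the length correction its average was 0.77, with an adjusted p of 0.0738 by limma. The gene snpc-1.3, a subunit of the snRNA activating complex known to drive male piRNA transcription, had 295, 484, 354 and 344 reads under csr-1 RNAi, 170, 194, 109 and 142 under P granule RNAi, and 77.2, 89, 97 and 80.1 in empty vector. It averaged 1.44 ± 0.19 (SE, adjusted p = 0.00285 by limma), and 1.46 after the length correction.

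P granule RNAi had the larger change in 24 shared genes, 15 of them rises. Among these, nssp-37 had 18.9, 27.4, 17.9 and 24.8 reads under csr-1 RNAi, 77.5, 57.1, 60.9 and 72.7 under P granule RNAi, and 12.2, 12.6, 15 and 15.8 in empty vector. Its log2 fold change was 0.63 under csr-1 RNAi and 2.19 under P granule RNAi, with an adjusted p of 0.00429 for the difference by limma. With the length correction its average was 0.94 and no longer passed the test (adjusted p = 0.0771 by limma). The largest fold under P granule RNAi was that of R09E10.2, at 3.28, with 25.4, 63.5, 171 and 114 reads under csr-1 RNAi, 654, 79.9, 240 and 108 under P granule RNAi, and 35.7, 29.3, 7 and 16.8 in empty vector. The csr-1 RNAi libraries overlapped the controls there. With the length correction R09E10.2 averaged 2.35 and was no longer called (adjusted p = 0.0557 by limma).

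**Figure D4:**
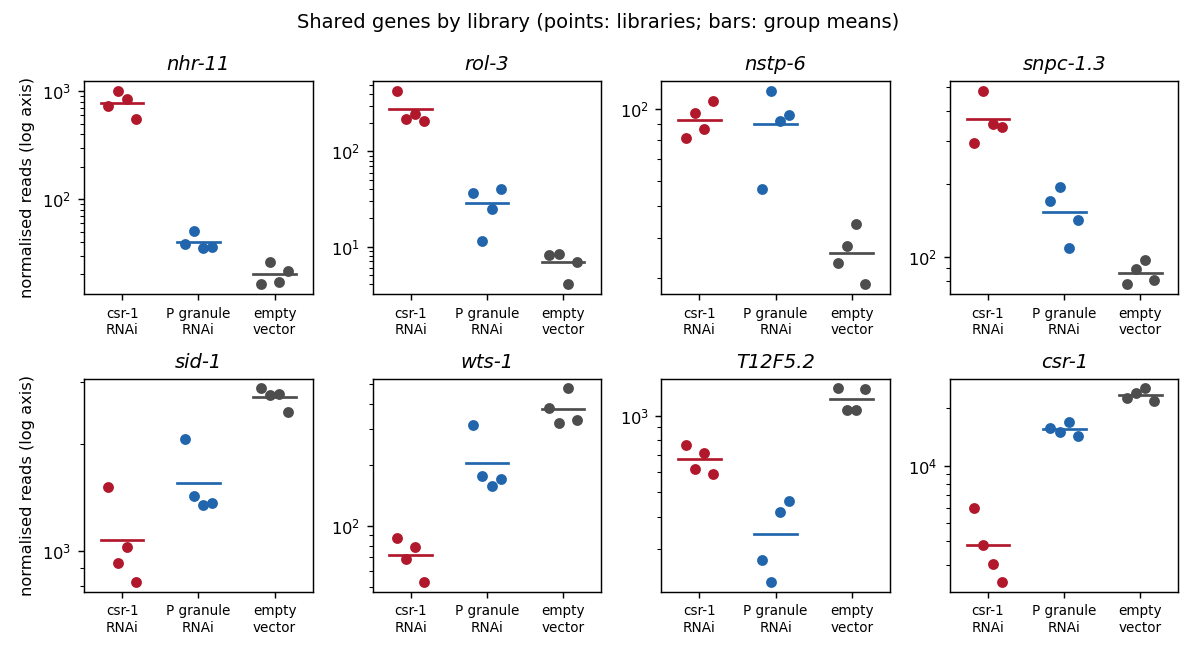
Normalised reads on log axes for 8 genes meeting the shared rule, with a point per library and a bar at each group mean. The 4 genes of the upper row lie above empty vector under both treatments, nstp-6 to a like degree (means of 92.7, 89.7 and 35.9 for csr-1 RNAi, P granule RNAi and empty vector), and the 4 of the lower row lie below it.

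The shared falls came from genes with more reads. Their median in empty vector was 429 normalised reads, against 273 for all genes tested. The 12 with the largest average falls and no overlap between RNAi and control libraries were csr-1, the Hippo pathway kinase gene wts-1, pqn-67, the carboxypeptidase gene cpd-1, K04B12.2, T12F5.2, the peroxisome gene prx-6, the LRRK-type kinase gene lrk-1, T08D2.4, the pseudogene F54D11.3, the MAP kinase kinase kinase gene dlk-1 and the liprin gene syd-2. The first of these, csr-1, is itself an RNAi target.

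The kinase gene wts-1 had 87.2, 68.5, 79.1 and 52.9 reads under csr-1 RNAi, 314, 176, 158 and 170 under P granule RNAi, and 382, 321, 475 and 331 in empty vector. The groups did not overlap, although P granule RNAi orig came close to the lowest control. Its log2 fold change averaged -1.65 ± 0.22 (SE, adjusted p = 0.00288 by limma), with -2.38 under csr-1 RNAi and -0.92 under P granule RNAi, and -1.34 on average after the length correction. T12F5.2 had 769, 618, 716 and 593 reads under csr-1 RNAi, 271, 222, 417 and 464 under P granule RNAi, and 1282, 1059, 1056 and 1277 in empty vector. It was the lowest under P granule RNAi, with log2 fold changes of -0.79 under csr-1 RNAi and -1.82 under P granule RNAi, and an average of -1.31 ± 0.19 (SE, adjusted p = 0.00436 by limma). T12F5.2 is the next coding gene after glh-4, an RNAi target, on the same strand, and its exons overlap larp-5 on the other strand. Whether the glh-4 RNAi trigger acted on it was not tested. The gene cpd-1 had 74.2, 98.4, 125 and 63.6 reads under csr-1 RNAi, 377, 208, 301 and 256 under P granule RNAi, and 468, 380, 527 and 438 in empty vector, again without overlap. Its average was -1.52 ± 0.21 (SE, adjusted p = 0.00364 by limma), but after the length correction its fold under P granule RNAi was -0.32, below the shared limit. The same held for csr-1 itself, whose fold under P granule RNAi was -0.6 before and -0.19 after that correction.

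Of the other large falls, pqn-67, a gene for a protein rich in glutamine and asparagine, had 2.18, 3.74, 1.88 and 1.08 reads under csr-1 RNAi, 5.16, 5.07, 7.23 and 6.16 under P granule RNAi, and 23.6, 31.4, 15 and 13.8 in empty vector. It averaged -2.18 ± 0.37 (SE, adjusted p = 0.00965 by limma). However, pqn-67 passed the low-value filter through the empty vector libraries alone, so it had to be lower under RNAi. The direction of its fall and its p-value are therefore no separate support. It was not tested without any 1 of the 4 empty vector libraries, where it did not pass the filter. The averages of the remaining falls ran from -1.35 for K04B12.2 to -1.19 for syd-2. The calls of K04B12.2 and F54D11.3 were lost without empty vector 2, that of lrk-1 without empty vector 1 or 2, and that of dlk-1 without empty vector orig, 1 or 2. The calls of syd-2 and prx-6 were lost without any 1 of the 4 empty vector libraries, P granule RNAi 2 or 3, or csr-1 RNAi 1, and that of T08D2.4 without empty vector orig, 2 or 3, P granule RNAi 2 or 3, or csr-1 RNAi 1. With no low-value filter prx-6 and T08D2.4 were not called (adjusted p = 0.0625 and 0.0523 by limma), nor without the 3 libraries named orig (0.0531 and 0.0503). Quantile normalisation ended the call of syd-2 (0.0527 by limma). After the length correction, prx-6 was not called (adjusted p = 0.0811 by limma). With that correction lrk-1, dlk-1 and syd-2 were still called but no longer met the shared rule. Their folds under P granule RNAi were then -0.09 for lrk-1, -0.46 for dlk-1 and -0.29 for syd-2. Exons of lrk-1, dlk-1 and syd-2 overlap a gene on the other strand, and those of T08D2.4 a gene on the same strand.

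C04G6.6 and the pseudogene T02G5.4, chosen after their values were seen, also met the rule in every leave-one-out fit and after the length correction. C04G6.6 had 61.1, 48.6, 49.9 and 58.2 reads under csr-1 RNAi, 352, 261, 187 and 195 under P granule RNAi, and 444, 438, 492 and 315 in empty vector, so P granule RNAi orig lay within the control range. T02G5.4 had 363, 455, 437 and 338 under csr-1 RNAi, 626, 771, 389 and 717 under P granule RNAi, and 1137, 1036, 1211 and 891 in empty vector, without overlap between either treatment and the controls. Their average log2 fold changes were -1.86 ± 0.2 for C04G6.6 and -1.12 ± 0.18 for T02G5.4 (SE, adjusted p = 0.000967 and 0.00756 by limma).

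Genes of small RNA pathways were lower on balance. Of 55 tested, 10 fell and 1 rose (20% called, against 5.12% of all genes), with a median of -0.34 against 0.01 over all genes. The falls include csr-1, itself an RNAi target, whose fall of -2.7 under csr-1 RNAi was set by the treatment. The gene that rose was mut-14, a helicase gene of the mutator complex, at 0.57. The falls that met the shared rule were csr-1, sid-1, which encodes the double-stranded RNA channel of systemic RNAi, the Piwi pseudogene prg-2, cid-1, a terminal uridylyltransferase gene, and nrde-3, a nuclear Argonaute gene. Falls short of the shared rule included the microRNA Argonaute gene alg-1 at -0.86 and the Argonaute genes ergo-1 at -0.57 and sago-1 at -0.81. After the length correction, the list had 4 falls and 4 rises and a median of 0, and only sid-1 and prg-2 met the shared rule.

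The channel gene sid-1 had 1514, 928, 1031 and 820 reads under csr-1 RNAi, 2069, 1435, 1355 and 1367 under P granule RNAi, and 2874, 2751, 2777 and 2460 in empty vector. All 8 RNAi libraries lay below all 4 controls, and the average fall of -1.1 ± 0.17 (SE, adjusted p = 0.00535 by limma) was made of -1.38 under csr-1 RNAi and -0.82 under P granule RNAi. The difference between the treatments was -0.55 ± 0.19 (SE, adjusted p = 0.0974 by limma), and the average was -0.85 after the length correction (adjusted p = 0.00202 by limma). The pseudogene prg-2 had 8996, 6621, 6288 and 3519 reads under csr-1 RNAi, 17259, 8484, 7632 and 7280 under P granule RNAi, and 20756, 17352, 18080 and 11838 in empty vector. P granule RNAi orig lay inside the control range. Its near copy prg-1 had 19047 to 23918 reads under csr-1 RNAi, 9956 to 14962 under P granule RNAi and 10580 to 15276 in empty vector, and how reads were divided between the pair is uncertain. The call of prg-2 was lost without empty vector orig, 1 or 2, P granule RNAi 1, 2 or 3, or csr-1 RNAi 1 or 2. That of cid-1 was lost in 10 of the 12 leave-one-out fits, the exceptions being csr-1 RNAi orig and 3, and also after the length correction (average -0.36, adjusted p = 0.0688 by limma). Voom (adjusted p = 0.057) and a pseudocount of 8 (0.0506 by limma) ended the call of cid-1 as well. With no low-value filter neither cid-1 nor prg-2 was called (0.0647 and 0.0527 by limma).

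Germline sex determination genes, which set whether germ cells become sperm or oocytes, moved in both directions. Of 33 tested, 4 rose and 5 fell (27.3% called, against 5.12% of all genes). The shared rule was met by 3 of each, beside 1.57% of all genes higher and 0.899% lower. The rises were fog-3, a Tob-family gene required for sperm fate, her-1, the secreted signal for male fate, and mag-1, an exon junction gene needed for oogenesis. The falls were the Nanos gene nos-3, the ataxin gene atx-2 and the helicase gene laf-1.

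The sperm fate gene fog-3 had 188, 401, 328 and 249 reads under csr-1 RNAi, 44.3, 55.8, 57.8 and 30.8 under P granule RNAi, and 23.6, 46, 34 and 18.8 in empty vector. P granule RNAi and empty vector overlapped, and the average rise of 1.94 ± 0.3 (SE, adjusted p = 0.00589 by limma) was 3.23 under csr-1 RNAi and 0.65 under P granule RNAi. For her-1 the reads were 38.5, 42.3, 26.4 and 29.1 under csr-1 RNAi, 5.16, 11.4, 6.2 and 14.8 under P granule RNAi, and 2.44, 5.23, 6 and 6.92 in empty vector, with overlap of P granule RNAi and control. The exon junction gene mag-1 had 4185, 5698, 5594 and 8373 reads under csr-1 RNAi, 3917, 5887, 6106 and 5466 under P granule RNAi, and 3288, 3302, 3236 and 3353 in empty vector. Every RNAi library lay above every control, and the log2 fold changes were 0.81 under csr-1 RNAi and 0.68 under P granule RNAi, with an average of 0.74 ± 0.17 (SE, adjusted p = 0.0294 by limma). The helicase gene laf-1 had 3802, 3670, 4231 and 3861 reads under csr-1 RNAi, 4413, 5916, 5036 and 4273 under P granule RNAi, and 6088, 7747, 7907 and 6595 in empty vector. It fell without overlap with the controls, with an average of -0.7 ± 0.11 (SE, adjusted p = 0.00756 by limma), with -0.86 under csr-1 RNAi and -0.53 under P granule RNAi. For atx-2, nos-3 and laf-1, whose transcripts are 3412 to 3657 bases long, the length correction ended the call, at adjusted p values of 0.239, 0.106 and 0.332 by limma. After it, fog-3 and mag-1 were still called but no longer met the shared rule, with folds of 0.48 and 0.31 under P granule RNAi. The calls of mag-1 and atx-2 were lost without any 1 of the 4 empty vector libraries, P granule RNAi 2 or 3, or csr-1 RNAi 1 or 2. That of her-1 was lost without empty vector orig, 1 or 2, P granule RNAi 3, or csr-1 RNAi 1 or 2, and that of nos-3 without empty vector 1 or 2. Quantile normalisation (adjusted p = 0.113 by limma), voom (0.0555) and leaving out the 3 libraries named orig (0.0507 by limma) also ended the call of her-1. With no low-value filter atx-2 was not called (adjusted p = 0.0544 by limma). The exons of mag-1 and nos-3 overlap a gene on the other strand.

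Sperm genes had higher levels on average but almost none passed the test. Major sperm protein genes, the cytoskeletal proteins of sperm, had positive average fold changes in 30 of 30 tested, with a median of 1.76, made of 1.46 under csr-1 RNAi and 2.04 under P granule RNAi. By limma 0 of them were called, with 5 at an unadjusted p under 0.05. By edgeR 0 were called and by DESeq2 18 were higher. The mean log2 level of the list was 4.25, 6.16, 8.75 and 9.99 under csr-1 RNAi, 8.08, 6.84, 9.16 and 7.85 under P granule RNAi, and 6.96, 6.69, 5.05 and 5.3 in empty vector. The csr-1 RNAi libraries thus ran on both sides of all controls. The summed level was 857 to 43604 normalised reads under csr-1 RNAi, 5220 to 24859 under P granule RNAi and 1364 to 4989 in empty vector. Members of this family are near copies of each other, so they are not 30 separate results.

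Small sperm protein families had 25 of 25 averages positive, a median of 1.84, and 0 called by limma (16 at an unadjusted p under 0.05), 0 by edgeR and 20 by DESeq2. Among 32 sperm function genes, spe-6 and spe-15 rose (6.25% called, against 5.12% of all genes) and the median was 1.24. The kinase gene spe-6, required for sperm assembly, had 851, 773, 745 and 744 reads under csr-1 RNAi, 305, 283, 315 and 259 under P granule RNAi, and 207, 189, 260 and 160 in empty vector. It was the member that met the shared rule, with a fold of 1.95 under csr-1 RNAi, 0.52 under P granule RNAi and an average of 1.23 ± 0.14 (SE, adjusted p = 0.00122 by limma). P granule RNAi 3 and empty vector 2 were almost level at 259 and 260 reads. After the length correction its fold under P granule RNAi was 0.47, just below the shared limit. Among the csr-1 RNAi libraries, orig had the lowest level of major sperm protein genes and library 3 the highest, and orig also had the highest and library 3 the lowest value of the length trend. The part of that trend in the sperm genes' spread was not tested.

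Of 32 genes tested for P granule components other than the targets, 1 rose and 2 fell (9.38% called, against 5.12% of all genes), and 0 met the shared rule. The scaffold gene mip-1 rose by 0.38 on average, with log2 fold changes of 1 under csr-1 RNAi and -0.24 under P granule RNAi. The helicase gene cgh-1 fell by 0.54 on average and meg-2, a maternal granule gene, by 0.64. After the length correction mip-1, mip-2 and prg-1 were higher and 0 genes of the list were lower.

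Histone genes were higher in 22 of 25 averages, with a median of 0.58, and 4 were called (16%, against 5.12% of all genes). The core histone genes his-48, his-59 and his-60 met the shared rule, and the fourth was the centromeric histone gene hcp-3. For his-60 the reads were 300, 276, 288 and 321 under csr-1 RNAi, 140, 307, 181 and 158 under P granule RNAi, and 77.2, 111, 100 and 174 in empty vector, so P granule RNAi orig and 3 lay inside the control range. Core histone genes have near copies and short transcripts, and after the length correction only hcp-3 was called. Without 1 library, the call of his-48 was lost for empty vector 1, 2 or 3 or csr-1 RNAi 1, that of his-60 for empty vector orig, 1 or 2, P granule RNAi 2, or csr-1 RNAi 1 or 2, and that of his-59 for any empty vector library, P granule RNAi 2 or 3, or csr-1 RNAi 1 or 2. With quantile normalisation his-48 and his-59 lost theirs (adjusted p = 0.111 and 0.0701 by limma). So did his-59 with voom (0.0582), with edgeR (0.0572) and with no low-value filter (0.0605 by limma). Without the 3 libraries named orig, his-59 and his-60 were not called (0.0641 and 0.0517 by limma).

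Ribosomal protein genes had 1 call in 78 (1.28%, against 5.12% of all genes) and a median of 0. The call was rpl-41.1, with 2337, 3807, 3215 and 5255 reads under csr-1 RNAi, 2719, 3363, 3248 and 3682 under P granule RNAi, and 2270, 1821, 1786 and 1728 in empty vector. Its log2 fold changes were 0.89 under csr-1 RNAi and 0.77 under P granule RNAi, and the call was lost without empty vector 1, 2 or 3, P granule RNAi 2 or 3, or csr-1 RNAi 1. After the length correction the list had 1 rise and 4 falls and a median of -0.31. The rise was rpl-41.1, at an average of 0.38. It no longer met the shared rule, with a fold of 0.18 under P granule RNAi.

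The lists for oogenesis, meiosis and proliferation had 2, 2 and 4 calls, beside the 5.12% called among all genes. In the oogenesis and eggshell list, 2 of 37 fell (5.41%), in meiosis 1 of 40 rose and 1 fell (5%), and in proliferation and cell cycle 2 of 34 rose and 2 fell (11.8%). The oocyte regulator gene lin-41 had 17080, 11417, 14242 and 11155 reads under csr-1 RNAi, 15520, 14234, 10864 and 10974 under P granule RNAi, and 19602, 19160, 22362 and 17148 in empty vector. The meiotic break gene him-17 had 4204, 4303, 4188 and 2955 under csr-1 RNAi, 4117, 3240, 4080 and 3561 under P granule RNAi, and 5059, 6068, 6174 and 5788 in empty vector. Both fell on average, without overlap with the controls. The log2 fold changes of lin-41 were -0.55 under csr-1 RNAi and -0.61 under P granule RNAi, and those of him-17 were -0.57 under csr-1 RNAi and -0.63 under P granule RNAi. Neither was called after the length correction, at averages of -0.08 for lin-41 and -0.28 for him-17 (adjusted p = 0.77 and 0.106 by limma). The call of him-17 was also lost without empty vector 1, 2 or 3, and that of lin-41 without any empty vector library, P granule RNAi 2 or 3, or csr-1 RNAi 1 or 2. With no low-value filter lin-41 was not called (adjusted p = 0.0554 by limma). Lists of germline chromatin, stress and antiviral genes had 0 calls in 29, 15 and 9 tested by limma, with 4, 5 and 1 at an unadjusted p under 0.05. By edgeR they had 0 as well, and by DESeq2 1, 1 and 0.

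**Figure D5:**
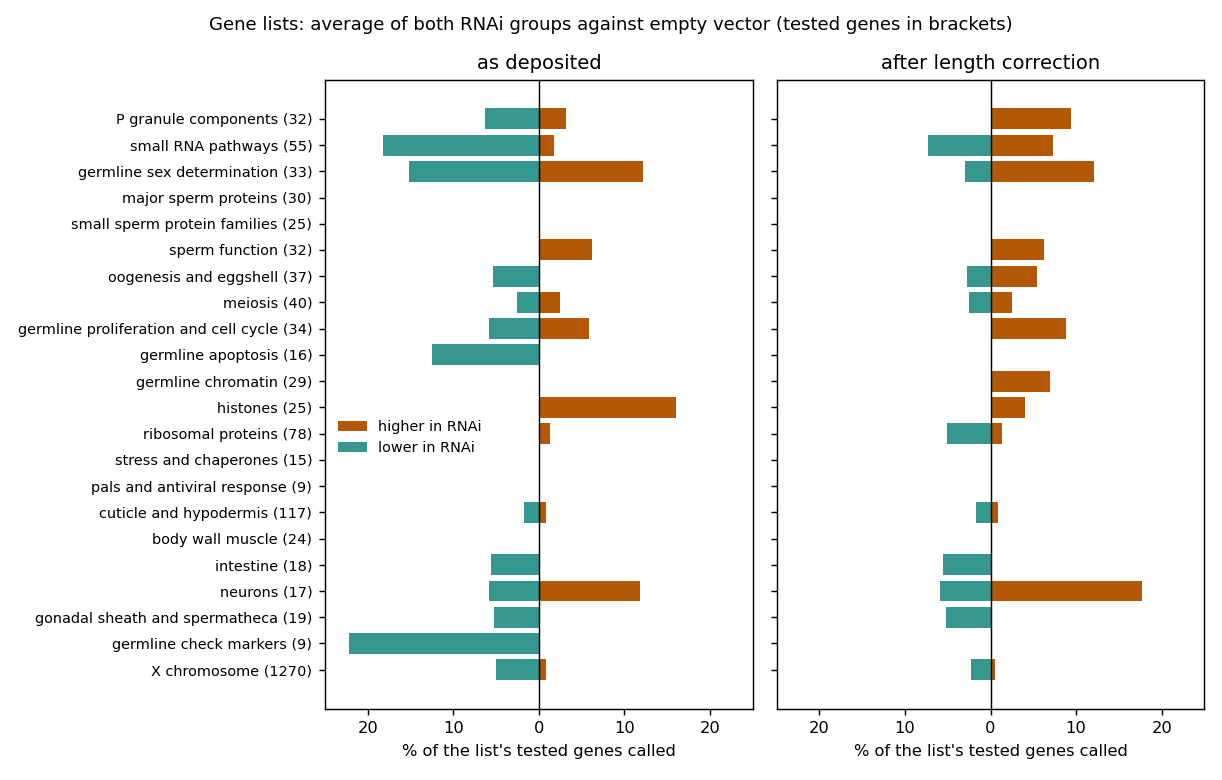
Bars give the percentage of each list's tested genes called higher (right) or lower (left) in the average of both RNAi groups over empty vector, as deposited and after the length correction. The small RNA list has 10 falls and 1 rise on the left panel and 4 of each on the right panel, with the RNAi target csr-1 among the falls of both.

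Of 117 cuticle and hypodermis genes, 1 rose and 2 fell (2.56%, against 5.12% of all genes). The falls were the collagen gene dpy-10 and the cuticlin-like gene cutl-10. The summed level of the list was 14362 to 43793 reads under csr-1 RNAi, 11936 to 110036 under P granule RNAi and 18711 to 41897 in empty vector, and body wall muscle had 0 calls in 24 by limma (1 at an unadjusted p under 0.05), 0 by edgeR and 1 by DESeq2. The collagen gene dpy-10 had 34.9, 42.3, 40.5 and 61.5 reads under csr-1 RNAi, 147, 57.1, 56.8 and 78.8 under P granule RNAi, and 151, 132, 125 and 127 in empty vector. P granule RNAi orig lay inside the control range. For cutl-10 the reads were 2.18, 16.2, 7.53 and 3.24 under csr-1 RNAi, 135, 53.3, 28.9 and 24.6 under P granule RNAi, and 164, 106, 87 and 44.5 in empty vector. The sheath and spermatheca list had 1 fall in 19 (5.26%), the Fat-like cadherin gene cdh-3. Its reads were 40, 17.4, 42.4 and 8.63 under csr-1 RNAi, 274, 105, 87.8 and 69 under P granule RNAi, and 322, 233, 396 and 162 in empty vector. The summed level of that list was 24859 to 48655 under csr-1 RNAi, 27224 to 31324 under P granule RNAi and 36665 to 47275 in empty vector, and its part in the fall of cdh-3 was not tested. The transcript of cdh-3 is 10252 bases long. After the length correction cdh-3 was still called, but its fold under P granule RNAi was -0.45, below the shared limit. The calls of cdh-3 and cutl-10 were lost without empty vector orig, 1 or 2, that of cutl-10 also without P granule RNAi 2 or 3 or csr-1 RNAi 2, and that of dpy-10 without any empty vector library, P granule RNAi 2 or 3, or csr-1 RNAi 1 or 2.

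Genes on the X chromosome, most of which are kept low in the germline, leaned to lower values. Of 1270 coding X genes tested, 64 fell and 11 rose, beside 2.64% of all genes called lower and 2.48% higher. Together 5.91% were called, against 5.12% of all genes, and 28 falls and 9 rises met the shared rule. Over all 1318 X genes tested, coding or not, 28 falls and 10 rises met it. On that wider count the X held 27.5% of the shared falls, 5.62% of the shared rises and 11.6% of all genes tested. For the coding X genes the median average was -0.17, with -0.31 under csr-1 RNAi and -0.04 under P granule RNAi. After the length correction, 29 fell and 7 rose, 6 falls and 6 rises met the shared rule, and the median was -0.09.

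Neuronal genes showed what an average can hide. Of 17 tested, 2 rose and 1 fell (17.6%, against 5.12% of all genes), and both rises came from csr-1 RNAi alone. The glutamate receptor gene glr-2 had 520, 399, 335 and 124 reads under csr-1 RNAi, 30.2, 5.07, 15.5 and 11.1 under P granule RNAi, and 14.6, 7.33, 13 and 12.9 in empty vector. The secretion gene unc-31 had 1061, 680, 632 and 242 under csr-1 RNAi, 63.4, 19, 32 and 29.6 under P granule RNAi, and 30.9, 28.3, 45 and 23.7 in empty vector. P granule RNAi and control overlapped for both, and the folds under P granule RNAi were 0.15 for glr-2 and 0.07 for unc-31. After the length correction that of unc-31 was 0.6, so it then met the shared rule. C42C1.3, R05H11.1 and T02C1.2 were likewise called on the average, with folds of 3.66, -2.57 and -2.97 under csr-1 RNAi and of 0.35, -0.42 and -0.05 under P granule RNAi. The gene pgl-1 was the reverse case, with 0.07 under csr-1 RNAi and -3.25 under P granule RNAi. Without 1 library, calls were lost for glr-2 (empty vector 1 or 2), unc-31 (empty vector 1), C42C1.3 (any empty vector library, P granule RNAi 3, or csr-1 RNAi 1 or 2), R05H11.1 (empty vector orig, 1 or 2) and T02C1.2 (any empty vector library, P granule RNAi 1, 2 or 3, or csr-1 RNAi 1). The call of T02C1.2 was also lost with no low-value filter (adjusted p = 0.0682 by limma) and without the 3 libraries named orig (0.0519). Without those 3 libraries C42C1.3 was not called either (0.0529 by limma), and with voom glr-2 and unc-31 were not (0.0935 and 0.0813).

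The authors also deposited their own tests of each treatment against empty vector. In the authors' deposited table for csr-1 RNAi, 982 of 45841 entries had an adjusted p under 0.05, and 142 of the 280 shared genes were among them. In the authors' deposited table for P granule RNAi, 104 of 45841 entries did, with 7 of the 280 shared genes among them. The authors' deposited tables had 87 genes under that threshold in both with the same direction, 75 higher and 12 lower, and 33 of these belong to the sperm lists. Among all 45841 entries, the major sperm protein, small sperm protein and sperm function lists hold 35, 31 and 39. Of the 87 genes from the authors' deposited tables, 77 were tested here and 6 were called in the average, beside 5.12% of all genes tested.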

How the data were processed

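PolyA RNA of dissected germlines was measured in 12 libraries of 3 groups. Per the submitters' processing notes, the tools were DESeq 1.1.2.1, HTSeq 0.5.4p3, SAMtools 0.1.18, TopHat2 2.0.8b and CASAVA. For the genome build and annotation, the version was not given in the sources used here. Values in the main table, deposited under the name of raw counts, have decimals: the authors' deposited signal per gene is whole reads divided by a size factor. Division by each library's step gave whole reads for 187378 of 187378 values within 0.01 read (100%). The authors' deposited comparison tables hold fold changes as a ratio, p-values and adjusted p-values. Of 45836 gene entries, 45373 (98.99%) were matched to names, chromosomes and transcript lengths of WBcel235 annotation tables, from which exon overlaps and neighbouring genes were also taken, and no coordinates are printed. The 5 entries that name no gene were left out of tests. Reads without a unique alignment, with ambiguous assignment and outside genes came to 2.04 to 2.76%, 0.783 to 0.917% and 0.014 to 0.0242% of all counted reads, those of these 5 entries included. No value column was left unused (0).

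Genes that reached 10 in 4 or more libraries were tested with limma 3.58.1 (R 4.3.3) on log2(value + 1), with trend and robust variance and a mean per group, so fold changes understate the change of low genes. The contrast was the average of the csr-1 RNAi and P granule RNAi means minus the empty vector mean, and p-values were adjusted over all genes by the Benjamini-Hochberg method at 0.05. The p-values measure the spread between these libraries. Count tests on the recovered reads used edgeR 4.0.16 and DESeq2 1.42.0. Other alternatives were pseudocounts of 0.5 and 8, other filters, TMM and quantile scaling, voom, 1 mean for the 8 RNAi libraries, a replicate block and leaving out libraries. A length correction, which takes out of each library a lowess trend on log2 transcript length, was added after seeing the data. The fit was tested on simulated data.

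The named genes were the RNAi targets, the 12 largest shared rises and 12 largest shared falls with all 8 RNAi libraries beyond all 4 controls, up to 4 shared genes per list, and per direction the 3 largest calls carried by 1 treatment. Others are said to be chosen after their values were seen. The members and lists were chosen with earlier results of these data known. Libraries of 1 group differed by far more than counting noise, with chi-square per degree of freedom from 16.5 to 459 over genes with at least 20 reads. Read counts in sums were given 95% exact conditional intervals. No sequence was analysed here.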

Additional observations from a re-analysis of the deposited data

Results flagged for a closer look

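In 16 of 156 groups of 4 libraries examined, 1 library lay far from the other 3 by Dixon's criterion, which chance alone gives in about 1 in 20 groups. In 5 of the 16 the library was P granule RNAi orig, which held 9.59 normalised reads of Y39B6A.29, 13.3 of cpt-3, 2069 of sid-1, 17259 of prg-2 and 314 of wts-1, each the highest of its group. In csr-1 RNAi, orig had 34.2 reads of C08D8.1, and library 3 had 19.4 of sri-16, 2955 of him-17 and 152 of K04B12.2. P granule RNAi 1 had 373 reads of his-59. Among the empty vector libraries, orig had 1.62 reads of str-68 and 0 of sri-16, library 1 had 1.05 of Y44A6D.6, library 2 had 722 of lrk-1, and library 3 had 0.989 of cpt-3 and 5344 of glh-4. Several of these are a difference of 1 or 2 reads.

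Reads without a unique alignment, which enter no comparison above, averaged 2.55% of all counted reads under csr-1 RNAi, 2.23% under P granule RNAi and 2.13% in empty vector. The csr-1 RNAi libraries ran from 2.3 to 2.76%, above the empty vector range of 2.04 to 2.21%.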

How the results depend on the processing

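The count of calls, 581, was 562 to 580 with other pseudocounts, 540 with a filter at 50, 536 and 638 with quantile and TMM scaling, 463 with voom, 493 and 507 with edgeR (TMM and RLE) and 439 with the length correction, which was added after seeing the data. It was 342 with no filter on low values, 1460 with DESeq2 and 0 with 1 mean for the 8 RNAi libraries. The shared count, 280, was 709 with DESeq2, 0 with 1 mean, 169 with the length correction, 562 with the sign alone, 89 with a smaller fold of at least 1 and 1 with a call required in each treatment. Without the 3 libraries named orig it was 517. Leaving out 1 library gave 88 to 1260 calls and 52 to 684 shared genes. Higher calls were 48.4% of all, but 38.1% with TMM, 36.9% with voom, 59.1% with no filter and 64.7% with the length correction.

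Same-numbered libraries of different groups had correlations of their deviations from -0.47 to 0.66, and differently numbered ones from -0.69 to 0.61. Whether the numbers pair the samples cannot be told from these ranges, which overlap widely. With the replicate block, 974 genes were called and 468 met the shared rule, and without the 3 orig libraries the block (added after seeing the data) gave 1149 and 828. With the block the call of T02C1.2 was lost (adjusted p = 0.0544 by limma). Of 52 named genes, 50 were called, 18 of them in each of the 12 fits that left out 1 library. A further 2, pqn-67 and Y44A6D.6, kept the call in the 8 such fits that tested them. Counting each named gene once in every alternative fit that tested it gave 1312 results. Of these results, 0 reversed, 244 lost and 8 gained a call. Genes with few control reads are limited by counting error.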

Other observations

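Some gene families stood out only after the values were seen, so their counts are descriptions. Of 22 genes tested from the chemoreceptor families, whose products sense odours and other chemicals in neurons, 9 rose and all 9 met the shared rule, beside 2.48% of all genes called higher and 1.57% higher by the shared rule: srd-74, sre-13, sri-16, srh-16, str-148, srm-1, srsx-25, str-68 and srt-13. The family median was 0.98 on the log2 scale, with 1.29 under csr-1 RNAi and 0.73 under P granule RNAi, and the median level in empty vector was 9.97 normalised reads. The gene str-148 had 53.1, 52.3, 46.1 and 23.7 reads under csr-1 RNAi, 12.5, 1.27, 6.2 and 4.93 under P granule RNAi, and 0, 0, 2 and 0 in empty vector. A gene so low in controls passes the filter on low values through the RNAi libraries alone.

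Genes of the Sm ring, the protein core of spliceosomal snRNPs, were abundant and moved by small amounts, with like medians under the 2 treatments. All 7 tested had positive averages, 5 were called and 4 met the shared rule, beside 5.12% and 2.47% of all genes, with family medians of 0.6 under csr-1 RNAi and 0.61 under P granule RNAi. The gene snr-3 had 6294, 8356, 8118 and 11967 reads under csr-1 RNAi, 5765, 8405, 8386 and 8573 under P granule RNAi, and 5030, 4818, 4714 and 4386 in empty vector. Its average was 0.77 ± 0.16 (SE, adjusted p = 0.0223 by limma). These transcripts are short, at 625 bases for snr-3 and 348 for snr-5. After the length correction the averages were 0.49 for snr-3, 0.43 for snr-1, 0.37 for snr-7, 0.21 for snr-5 and 0.14 for snr-6. Those of snr-2 and snr-4, which were not called before it, were then -0.02 and -0.05. Only snr-3 and snr-1 were still called (adjusted p = 0.0186 and 0.0314 by limma), and no Sm gene met the shared rule after the correction.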
